A study of Homo sapiens with 8 samples.

Results

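The p53 target genes described here are 30 protein-coding genes, chosen by name as well-known transcriptional targets of the tumour suppressor p53, out of 58735 genes in the deposited table. All 30 symbols were found in it. PANC-1 cells, an established line from a human pancreatic ductal adenocarcinoma, were transfected for 48 h with a siRNA against BARD1 (4 libraries, siBARD1, labelled as BARD1 knockdown) or with a scrambled siRNA (4 libraries, siSCR, labelled WT). Both groups are the same line under transient transfection, and polyadenylated RNA was sequenced. How many siRNA sequences were used and whether replicates were separate cultures is not given in the sources used here, so the p-values cover the spread among these libraries alone, which may be technical.

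p53 is a transcription factor that binds paired half-sites in DNA near its target genes and is held in check by MDM2, itself a p53 target, and by the related protein MDM4. Its targets slow the cell cycle, aid repair, tune metabolism or promote cell death. Several targets on the list are also known to respond to other stress or growth factor pathways.

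Of the 30 genes, 28 passed the filter on low counts, and 15 of these changed at an edgeR adjusted p under 0.05: 10 rose and 5 fell in siBARD1 cells. That is 53.6% of the genes tested, beside 38.9% of all 15287 genes tested, though the 30 genes were chosen with earlier results of these data known. The share that rose was 35.7%, beside 18.9% of all genes, and the share that fell was 17.9%, beside 20.0% of all genes. The median log2 fold change of the 28 genes was 0.09, beside 0.004 over all genes. No member reached a 2-fold change: the largest rise was 1.96-fold, in SESN1, and the largest fall 1.80-fold, in SESN2, which encode related proteins. MDM2, MDM4, CCNG1 and RRM2B rose, while CDKN1A, GADD45A, AEN and DDB2 fell. With scaling by total count alone, 11 members rose and 5 fell, while over all genes 3616 rose and 2478 fell, against 2889 and 3057 with the scaling used here (TMM).

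**Figure D1:**
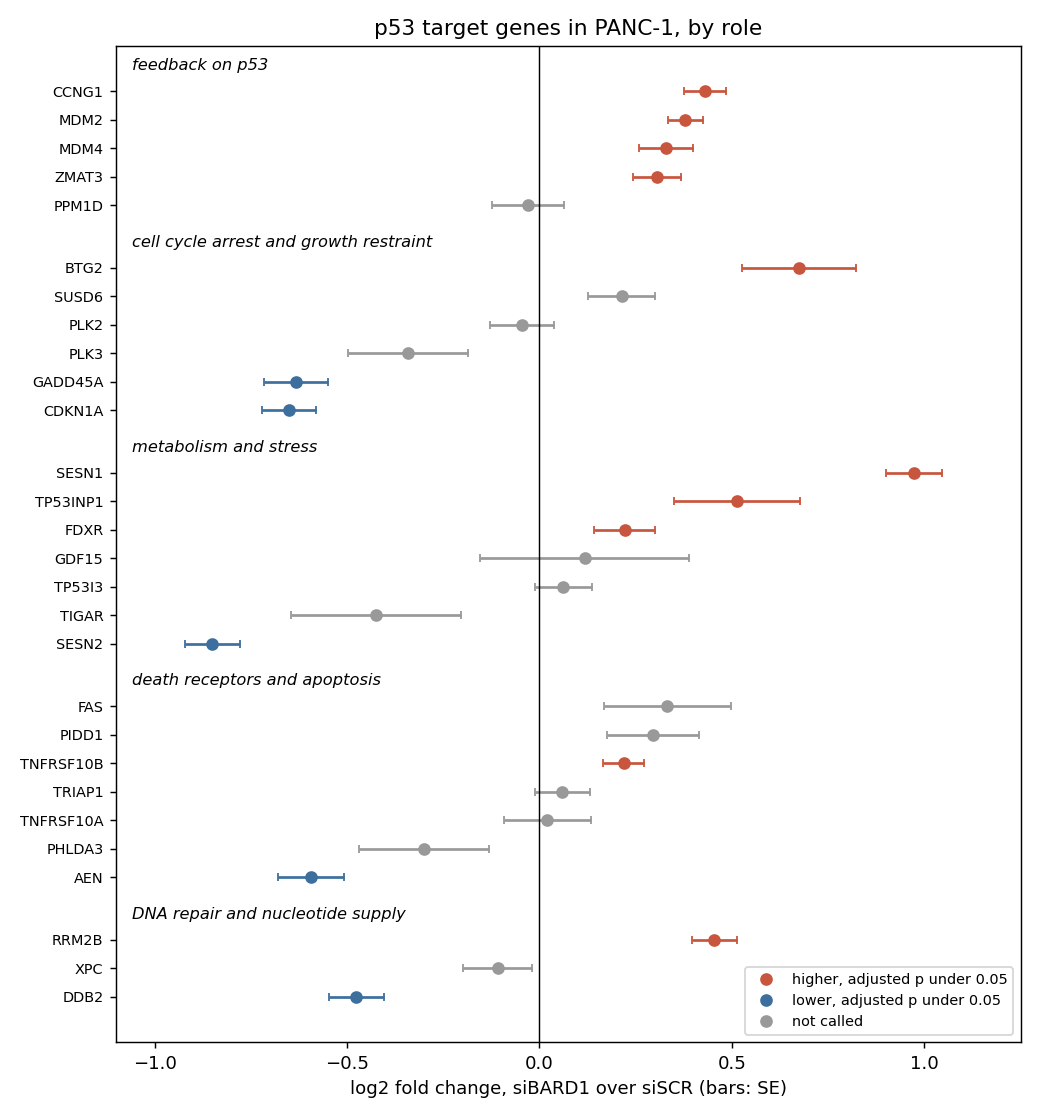
Log2 fold change of the 28 tested p53 target genes, siBARD1 over siSCR, with bars for the SE, grouped by role. The 10 genes that rose run up to SESN1 at 0.97 and the 5 that fell down to SESN2 at -0.85, and each role group other than feedback on p53 holds genes that rose and genes that fell.

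BARD1, the siRNA target and the RING partner of BRCA1 in DNA repair, had counts of 67, 75, 97 and 55 in siBARD1 libraries, against 415, 382, 381 and 424 in siSCR libraries. Its level averaged 2.997 ± 0.397 CPM in siBARD1 and 19.5 ± 2.33 CPM in siSCR (SD, n = 4 each), and it fell 6.48-fold (log2 fold change -2.69, SE 0.12, adjusted p = 7.41e-11). Library totals were 20185800 to 28590710 counts in siBARD1 and 17816547 to 24367315 in siSCR. On the second principal component siSCR replicate 1 stood apart at 31.5, with the remaining 7 libraries at -12.5 to 5.59. Without it, 11 members rose and 5 fell. In a list of 8 genes taken as PANC-1 epithelial and ductal markers, 5 fell (62.5%, beside 20.0% of all genes) and 0 rose in edgeR. DESeq2 and limma-voom gave the same counts. Before adjustment of p, 6 of the 8 passed 0.05 as lower and 0 as higher. The summed level of the 8 was 4635 to 6014 CPM in siBARD1 against 7373 to 9348 CPM in siSCR. The list also holds VIM, a mesenchymal gene, and is not split by cell state here, so a loss of epithelial genes as such was not tested. Of 18 markers of blood, endothelial, fibroblast, acinar, islet and liver cells, 7 (CDH5, DCN, LUM, AMY2A, INS, GCG and ALB) had no count in any library and 3 passed the filter. Their summed level was 81.7 to 92.3 CPM in siBARD1 and 86.9 to 127 CPM in siSCR, most of it COL1A1, named after its values were seen. The part of these shifts in the members' results was not tested.

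Sequences upstream of some of these genes hold the p53 half-site, a palindromic motif of 10 bases, and are shown because the genes move in different directions. RefSeq windows of 300 bases (build GRCh38.p14, 250 upstream of an annotated start and 50 downstream) were available for 24 members, with 36 windows in all. An exact half-site lay in 6 of the 36 windows (16.7%), in 6 genes, beside 6.63% of all 35116 RefSeq windows. The genes were SESN1 and FDXR, which rose, AEN and DDB2, which fell, and FAS and PLK2, which were not called. Within 2 mismatches in all, a pair of half-sites with a spacer of 0 to 13 bases lay in 10 windows (27.8%), beside 7.82% of all windows. These windows belong to 4 genes that rose, 2 that fell and 1 that was not called. Overlapping windows of MDM2 hold the same pair, as do those of CCNG1, so these pairs are counted more than once in the 27.8%. Some genes have several windows, so every share of the 36 windows, also that for GC boxes below, counts such genes more than once. The 35116 RefSeq windows were not limited to the genes tested here. A match is a description of the letters in the window and not a measurement of binding, and response elements outside these windows were not searched. The sequences are given 5′ to 3′ on the gene's strand.

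Capitals mark a half-site pair with 2 mismatches in the 250 bases before an internal start of MDM2 (chr12:68808767-68809016, plus strand).
MDM2: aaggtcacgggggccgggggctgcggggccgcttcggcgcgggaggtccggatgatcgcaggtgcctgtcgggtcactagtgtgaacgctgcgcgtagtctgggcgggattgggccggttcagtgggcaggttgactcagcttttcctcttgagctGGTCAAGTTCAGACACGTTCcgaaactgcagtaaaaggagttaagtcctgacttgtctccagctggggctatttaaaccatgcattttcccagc
Capitals mark the exact half-site in SESN1 (chr6:109008989-109009238, minus strand), FDXR (chr17:74872995-74873244, minus strand) and AEN (chr15:88621090-88621339, plus strand).
SESN1: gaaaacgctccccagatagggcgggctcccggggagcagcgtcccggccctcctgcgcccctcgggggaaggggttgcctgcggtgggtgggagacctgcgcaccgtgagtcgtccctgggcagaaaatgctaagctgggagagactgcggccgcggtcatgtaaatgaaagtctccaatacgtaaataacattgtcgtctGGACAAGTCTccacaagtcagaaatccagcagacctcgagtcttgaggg
FDXR: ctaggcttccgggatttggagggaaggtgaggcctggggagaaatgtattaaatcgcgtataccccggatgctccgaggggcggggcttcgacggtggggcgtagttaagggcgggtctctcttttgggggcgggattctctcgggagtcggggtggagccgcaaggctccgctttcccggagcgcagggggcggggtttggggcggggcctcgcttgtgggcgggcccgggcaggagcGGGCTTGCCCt
AEN: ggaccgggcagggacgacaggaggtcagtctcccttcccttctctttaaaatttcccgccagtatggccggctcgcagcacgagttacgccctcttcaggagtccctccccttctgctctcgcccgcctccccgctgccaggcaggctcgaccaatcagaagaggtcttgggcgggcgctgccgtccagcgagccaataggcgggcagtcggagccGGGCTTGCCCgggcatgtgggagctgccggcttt
In DDB2, which encodes a DNA damage sensor, a pair with no mismatch lay just downstream of one of its annotated starts (chr11:47214979-47214999, plus strand), with both half-sites in capitals and the spacer in lower case. It was the one window of the 36 with 2 exact half-sites, a feature of 0.308% of all windows.
DDB2: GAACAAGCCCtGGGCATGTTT
CDKN1A (chr6:36678464-36678713, plus strand) had neither feature in its window, and capitals mark GC boxes, GGGCGG or its reverse complement CCGCCC, which lay on either strand in 31 of the 36 windows (86.1%) and in 45.0% of all windows.
CDKN1A: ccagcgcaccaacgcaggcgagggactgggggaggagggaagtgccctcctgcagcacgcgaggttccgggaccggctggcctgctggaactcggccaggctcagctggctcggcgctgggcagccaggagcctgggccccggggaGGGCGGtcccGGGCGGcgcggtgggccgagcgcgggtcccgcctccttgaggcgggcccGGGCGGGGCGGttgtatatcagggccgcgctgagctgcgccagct

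Of the 5 genes that feed back on p53, 4 rose and 0 fell in edgeR, and the counts were the same in DESeq2, in limma-voom and at an unadjusted p under 0.05. Over all genes, 18.9% rose and 20.0% fell. MDM2 (ENSG00000135679; chromosome 12, 68808176 to 68850686, plus strand, GRCh38), the ubiquitin ligase that marks p53 for degradation, had 129, 129.6, 126 and 125 CPM in siBARD1 libraries, against 99.5, 92.5, 101 and 97.97 CPM in siSCR libraries, with libraries always in the order of replicates 1, 3, 4 and 5. All 4 siBARD1 values lay above all siSCR values, and the spread within each group was small. Of the exonic bases of MDM2, 3.3% are shared with a gene on its strand and 6.91% with genes on the opposite strand. Whether strand was used in counting is not stated. MDM2 rose 1.301-fold (log2 fold change 0.38, SE 0.05, adjusted p = 6.96e-06). Its relative MDM4 (ENSG00000198625; chromosome 1, 204516379 to 204558120, plus strand), which binds p53 and blunts its activity, had 51.4, 51.7, 48.5 and 50.4 CPM in siBARD1 libraries, against 36.1, 38.04, 46.4 and 40.2 CPM in siSCR libraries. Here too the groups did not overlap, although siSCR replicate 4 came close to the siBARD1 libraries. MDM4 rose 1.26-fold (log2 fold change 0.33, SE 0.07, adjusted p = 0.00148).

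CCNG1 (ENSG00000113328; chromosome 5, 163437569 to 163446151, plus strand) encodes cyclin G1, which works with a phosphatase that acts on MDM2, and was the second most abundant member per length in both groups. It had 179.6, 165, 180.5 and 179 CPM in siBARD1 libraries, against 141, 129, 133 and 119.5 CPM in siSCR libraries, again without overlap. It rose 1.35-fold (log2 fold change 0.43, SE 0.05, adjusted p = 9.4e-06). ZMAT3 (ENSG00000172667; chromosome 3, 179017223 to 179072279, minus strand), a zinc finger protein that binds RNA, had 44.8, 43.5, 46.3 and 42.5 CPM in siBARD1 libraries, against 38.6, 34.3, 37.1 and 33.1 CPM in siSCR libraries. These groups were also apart, and ZMAT3 rose 1.24-fold (log2 fold change 0.31, SE 0.06, adjusted p = 0.00111). PPM1D, the phosphatase Wip1 that switches damage signalling off, stood at 10.5 ± 0.618 CPM in siBARD1 and 10.7 ± 0.4801 CPM in siSCR (SD, n = 4 each). Its libraries overlapped, with the log2 fold change at -0.03 (SE 0.09, adjusted p = 0.833).

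Among 6 genes of cell cycle arrest and growth restraint, 1 rose, 2 fell and 3 were not called, beside 38.9% of all genes called. CDKN1A (ENSG00000124762; chromosome 6, 36676460 to 36687339, plus strand) encodes p21, the inhibitor of cyclin-dependent kinases through which p53 arrests the cycle. It had 45.5, 44.3, 41.3 and 40.5 CPM in siBARD1 libraries, against 76.2, 65.3, 59.9 and 67.9 CPM in siSCR libraries. Every siBARD1 library lay below every siSCR library. Of the exonic bases of CDKN1A, 4.79% are shared with a gene on the opposite strand. CDKN1A fell 1.57-fold (log2 fold change -0.65, SE 0.07, adjusted p = 1.87e-06), so that it moved opposite to MDM2 in the same libraries. GADD45A (ENSG00000116717; chromosome 1, 67685061 to 67688338, plus strand), a growth arrest and stress-response protein, had 17.6, 18.1, 18.6 and 22.4 CPM in siBARD1 libraries, against 31.5, 28.6, 31.1 and 27.5 CPM in siSCR libraries. It fell 1.55-fold without overlap (log2 fold change -0.63, SE 0.08, adjusted p = 1.57e-05).

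BTG2 (ENSG00000159388; chromosome 1, 203305491 to 203309602, plus strand), an antiproliferative protein that promotes mRNA deadenylation, was a low-count member at 5.95, 5.36, 4.99 and 5.97 CPM in siBARD1 libraries, against 4.22, 3.02, 3.602 and 2.995 CPM in siSCR libraries. The groups were still apart, and BTG2 rose 1.59-fold (log2 fold change 0.67, SE 0.15, adjusted p = 0.00175). The polo-like kinases on the list, both stress-responsive, were not called. PLK2 stood at 141 ± 17.8 CPM in siBARD1 and 146 ± 11.1 CPM in siSCR (SD, n = 4 each), with a log2 fold change of -0.04 (SE 0.08, adjusted p = 0.711), and its sign turned with scaling by total count alone. PLK3 stood at 5.39 ± 0.953 CPM in siBARD1 and 6.85 ± 1.24 CPM in siSCR (SD, n = 4 each). Its libraries overlapped, with the log2 fold change at -0.34 (SE 0.16, adjusted p = 0.0937). SUSD6, a sushi-domain membrane protein, had 15.1, 15.1, 16.2 and 15.3 CPM in siBARD1 libraries, against 12.2, 12.4, 14.8 and 13.9 CPM in siSCR libraries. It was the one uncalled member whose groups did not overlap, with a log2 fold change of 0.21 (SE 0.09, adjusted p = 0.0623), and it passed with scaling by total count or upper quartile (adjusted p = 0.0274 and 0.0324) and without siSCR replicate 4 (0.0346).

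**Figure D2:**
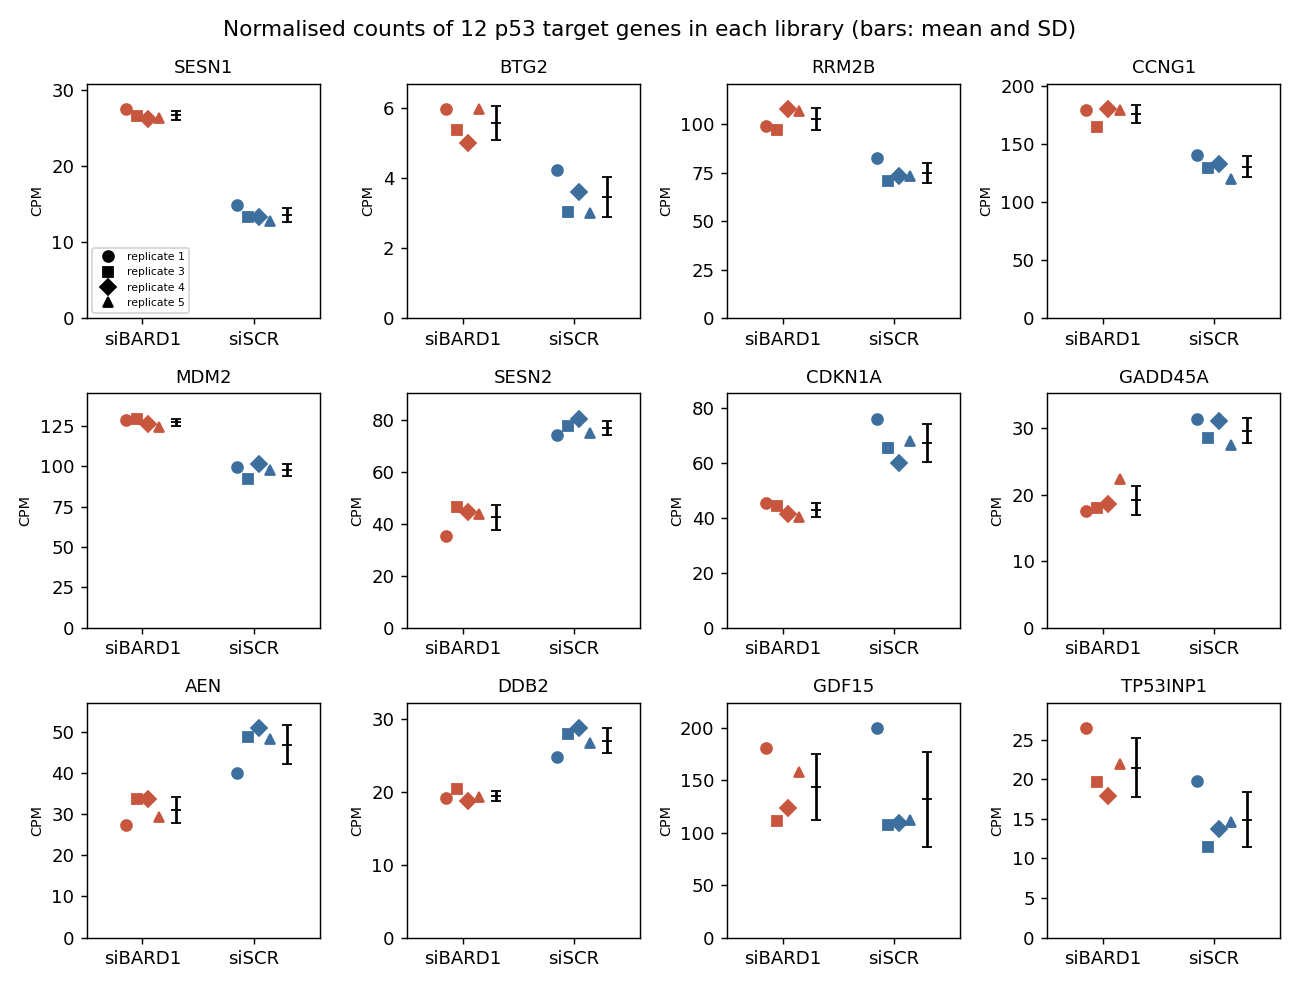
CPM of 12 p53 target genes in each library, siBARD1 left and siSCR right, with a marker shape for each replicate number and black bars for the mean and SD (n = 4 each). SESN1, BTG2, RRM2B, CCNG1 and MDM2 lay higher and SESN2, CDKN1A, GADD45A, AEN and DDB2 lower in all 4 siBARD1 libraries, while GDF15 and TP53INP1 overlapped.

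In metabolism and stress, 3 of the 7 genes tested rose, 1 fell and 3 were not called, beside 38.9% of all genes called. The sestrins moved in opposite directions. Sestrins restrain mTORC1 signalling and protect against oxidative stress. SESN1 (ENSG00000080546; chromosome 6, 108986437 to 109094819, minus strand) had 27.5, 26.6, 26.2 and 26.4 CPM in siBARD1 libraries, against 14.8, 13.3, 13.2 and 12.8 CPM in siSCR libraries. The lowest siBARD1 library was well above the highest siSCR library, and SESN1 rose 1.96-fold (log2 fold change 0.97, SE 0.07, adjusted p = 2.71e-08). Of the exonic bases of SESN1, 7.09% are shared with a gene on the opposite strand. SESN2 (ENSG00000130766; chromosome 1, 28259527 to 28282491, plus strand), which also senses leucine and is induced by ATF4 as well as p53, had 35.5, 46.4, 44.4 and 43.9 CPM in siBARD1 libraries, against 74.3, 77.6, 80.5 and 75.1 CPM in siSCR libraries. It fell 1.803-fold without overlap (log2 fold change -0.85, SE 0.07, adjusted p = 1.03e-07). On the length-scaled FPKM scale, SESN1 averaged 5.17 ± 0.109 FPKM in siBARD1 and 2.63 ± 0.175 FPKM in siSCR, and SESN2 averaged 12.2 ± 1.399 FPKM in siBARD1 and 22.1 ± 0.814 FPKM in siSCR (SD, n = 4 each). The log2 ratio of SESN1 to SESN2 within a library was -1.37 to -0.93 in siBARD1 and -3.17 to -2.89 in siSCR, so SESN2 was the more abundant in every library and by less in siBARD1. The ranges of the groups overlapped for MDM2 over MDM4 and for PLK2 over PLK3: the log2 ratio of MDM2 to MDM4 was 1.04 to 1.10 in siBARD1 and 0.85 to 1.19 in siSCR, and that of PLK2 to PLK3 was 3.86 to 4.82 in siBARD1 and 3.77 to 4.17 in siSCR.

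TP53INP1, a nuclear stress protein that also acts in autophagy, had 26.4, 19.6, 17.9 and 21.9 CPM in siBARD1 libraries, against 19.7, 11.5, 13.8 and 14.5 CPM in siSCR libraries. Replicate 1 was the highest library of each group, and the groups overlapped. TP53INP1 rose 1.43-fold (log2 fold change 0.51, SE 0.16, adjusted p = 0.0283), but the call was lost without siSCR replicate 3, 4 or 5 or siBARD1 replicate 1 or 5 (adjusted p = 0.0547 to 0.0758). FDXR, the mitochondrial reductase that passes electrons to ferredoxin, had 18.4, 16.7, 17.9 and 18.1 CPM in siBARD1 libraries, against 16.4, 13.9, 15.7 and 14.8 CPM in siSCR libraries. Its groups were apart by a narrow margin, and it rose 1.17-fold (log2 fold change 0.22, SE 0.08, adjusted p = 0.0372). Leaving out any 1 of siSCR replicates 3, 4 and 5 or siBARD1 replicates 1, 4 and 5 ended that call (adjusted p = 0.0543 to 0.118), as did testing with no filter on low counts (0.0643).

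GDF15, a secreted stress cytokine of the TGF-beta superfamily, was the most abundant member per length, at 68.1 ± 14.9 FPKM in siBARD1 and 62.8 ± 21.6 FPKM in siSCR (SD, n = 4 each). It had 180.3, 111, 124 and 158 CPM in siBARD1 libraries, against 199, 107, 109 and 112 CPM in siSCR libraries. siSCR replicate 1 stood far above the other control libraries, and siBARD1 replicates 1 and 5 above the other siBARD1 libraries, and the group difference did not pass the test, with a log2 fold change of 0.12 (SE 0.27, adjusted p = 0.775). Without siSCR replicate 1 the log2 fold change was 0.39 (adjusted p = 0.146), and without siBARD1 replicate 1 it was -0.011 (adjusted p = 0.983). TP53I3, a quinone oxidoreductase, stood at 24.5 ± 1.84 CPM in siBARD1 and 23.6 ± 1.32 CPM in siSCR (SD, n = 4 each), with a log2 fold change of 0.06 (SE 0.07, adjusted p = 0.547). TIGAR, a fructose bisphosphatase that lowers glycolytic flux, was the least abundant tested member, at 1.21 ± 0.159 CPM in siBARD1 and 1.63 ± 0.231 CPM in siSCR (SD, n = 4 each), with a log2 fold change of -0.43 (SE 0.22, adjusted p = 0.141). Its counts are uncertain, since 42.6% of its annotated exon sequence also belongs to an overlapping gene of that strand. Behind GDF15 and CCNG1 in both groups came PLK2, with 29.4 ± 3.62 FPKM in siBARD1 and 30.4 ± 2.26 FPKM in siSCR (SD, n = 4 each). SPATA18, a mitochondrial quality control protein, had 1 read in each of siBARD1 replicates 3 and 4 and 0 in the other 6 libraries, and was not tested.

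**Figure D3:**
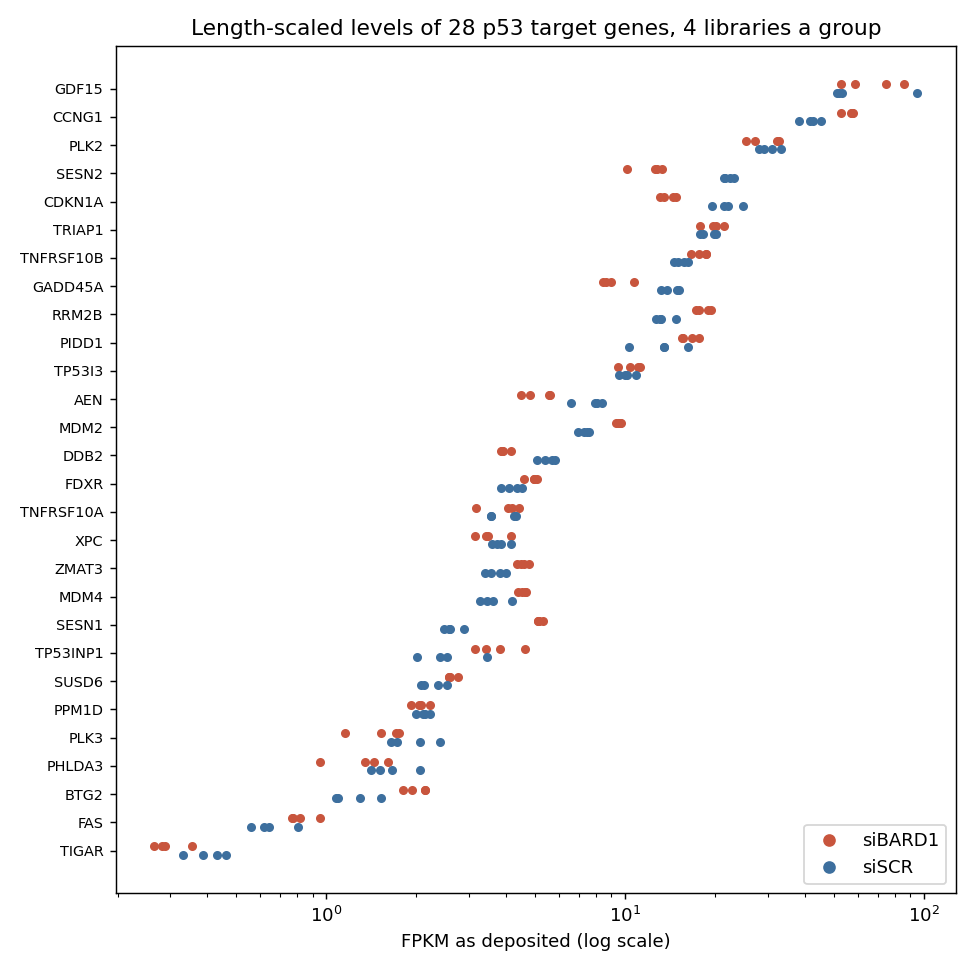
FPKM, on a log scale, of the 28 tested p53 target genes in each siBARD1 library and each siSCR library, ordered by the siSCR mean. Levels ran from TIGAR at 0.298 FPKM in siBARD1 and 0.404 FPKM in siSCR to GDF15 at 68.1 FPKM in siBARD1 and 62.8 FPKM in siSCR.

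Of the 7 genes of death receptors and apoptosis tested, 1 rose, 1 fell and 5 were not called, beside 38.9% of all genes called. TNFRSF10B, the TRAIL receptor DR5, had 86.4, 91.9, 96.4 and 97.2 CPM in siBARD1 libraries, against 84.03, 75.5, 81.9 and 77.98 CPM in siSCR libraries. The groups did not overlap but lay close together, and TNFRSF10B rose 1.16-fold (log2 fold change 0.22, SE 0.05, adjusted p = 0.00403). Its relative TNFRSF10A, the TRAIL receptor DR4, stood at 11.8 ± 1.602 CPM in siBARD1 and 11.6 ± 1.22 CPM in siSCR (SD, n = 4 each), with a log2 fold change of 0.02 (SE 0.11, adjusted p = 0.909), and 16.6% of its exonic bases are shared with genes on the opposite strand. The log2 ratio of TNFRSF10A to TNFRSF10B was -2.39 to -2.08 in siBARD1 and -2.07 to -1.88 in siSCR, ranges that adjoined without overlapping. FAS, the receptor of Fas ligand, stood at 3.55 ± 0.381 CPM in siBARD1 and 2.802 ± 0.453 CPM in siSCR (SD, n = 4 each). Its libraries overlapped, with the log2 fold change at 0.33 (SE 0.16, adjusted p = 0.122), and 8.93% of its exonic bases are shared with ACTA2 on the opposite strand. EDA2R, a receptor of the same superfamily, had 2 reads in siBARD1 replicate 4 and 0 in the other 7 libraries, and was not tested.

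AEN (ENSG00000181026; chromosome 15, 88621296 to 88632282, plus strand), a nuclease that enhances apoptosis, had 27.3, 33.7, 33.7 and 29.2 CPM in siBARD1 libraries, against 39.9, 48.7, 50.8 and 48.1 CPM in siSCR libraries. It fell 1.51-fold without overlap (log2 fold change -0.59, SE 0.09, adjusted p = 4.58e-05). PIDD1, the scaffold of the PIDDosome that activates caspase-2, had 105, 98.9, 91.8 and 91.96 CPM in siBARD1 libraries, against 60.8, 79.5, 79.8 and 96.2 CPM in siSCR libraries. The siSCR libraries were widely spread, with replicate 1 the lowest and replicate 5 the highest, and overlapped the siBARD1 libraries, with a log2 fold change of 0.30 (SE 0.12, adjusted p = 0.0785). PIDD1 passed in DESeq2 (adjusted p = 0.0172), with no filter on low counts (3.77e-05) and without siSCR replicate 1 (0.0419) or siSCR replicate 5 (0.00425). It shares 2.03% of its exonic bases with PANO1 and the ribosomal protein gene RPLP2 on the opposite strand, and whether strand was used in counting is not stated. PHLDA3, a repressor of AKT that shares 19.1% of its exonic bases with a gene on its strand, stood at 4.23 ± 0.868 CPM in siBARD1 and 5.23 ± 0.883 CPM in siSCR (SD, n = 4 each), with a log2 fold change of -0.30 (SE 0.17, adjusted p = 0.174). TRIAP1, a mitochondrial protein that restrains apoptosis, stood at 28.7 ± 2.12 CPM in siBARD1 and 27.6 ± 1.64 CPM in siSCR (SD, n = 4 each), with a log2 fold change of 0.06 (SE 0.07, adjusted p = 0.546).

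The repair and nucleotide supply genes moved in different directions. RRM2B, the p53-inducible small subunit of ribonucleotide reductase, had 99.3, 96.7, 108 and 107 CPM in siBARD1 libraries, against 82.3, 70.5, 73.4 and 73.1 CPM in siSCR libraries. Its lowest siBARD1 library lay above its highest siSCR library, and it rose 1.37-fold (log2 fold change 0.45, SE 0.06, adjusted p = 1.1e-05). DDB2 (ENSG00000134574; chromosome 11, 47214465 to 47239240, plus strand), which recognises ultraviolet lesions for nucleotide excision repair, had 19.2, 20.5, 18.8 and 19.3 CPM in siBARD1 libraries, against 24.8, 27.95, 28.8 and 26.7 CPM in siSCR libraries. It fell 1.39-fold without overlap (log2 fold change -0.48, SE 0.07, adjusted p = 5.32e-05). XPC, the damage sensor that works after DDB2, stood at 17.1 ± 2.05 CPM in siBARD1 and 18.5 ± 1.14 CPM in siSCR (SD, n = 4 each), with a log2 fold change of -0.11 (SE 0.09, adjusted p = 0.363). Of the exonic bases of XPC, 30.4% are shared with genes on the opposite strand, and whether strand was used in counting is not stated.

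In all, the groups did not overlap for 15 of the 28 genes tested, 14 of them called, beside 36.1% of all genes tested. TP53INP1 was the one called gene whose groups overlapped. The called members were changed by a median of 0.48 on the log2 scale, beside 0.36 for all 5946 called genes. The 10 genes that rose had a median GC content of 39.2% in the 3′ UTR, the 5 that fell 52.1% and those not called 46.9%. The ranges overlapped, at 32.2% to 60.9% for those that rose and 31.7% to 55.1% for those that fell. Among all protein-coding genes tested, those that rose had a median of 40.3% and those that fell 44.5%, with 43.8% for those not called. The 3′ UTRs had a median length of 3084 bases in the members that rose and 1539 bases in those that fell, beside 1900 and 1218 bases among all protein-coding genes that rose and fell. The lengths overlapped, at 320 to 10837 bases in the members that rose and 391 to 1988 bases in those that fell. These values come from the transcript with the longest 3′ UTR of each gene.

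A sequence of 7 bases, CTACCAG, was picked out by an earlier search of these same libraries for 3′ UTR sequences that go with lower levels in siBARD1, so its link to falls is not independent of them. It is shown because SESN2, the member that fell most, carries it there. In 1 GENCODE 29 transcript per gene, the one with the longest 3′ UTR, 5 of the 28 tested members held it (17.9%), beside 24.3% of 12722 protein-coding transcripts. In the 3′ UTR it lay in 3 members (10.7%), beside 8.10% of all: SESN2, which fell, ZMAT3, which rose, and TIGAR, which was not called and held 2 copies. CDKN1A, GADD45A, AEN and DDB2, the other members that fell, had no copy in these transcripts. PLK2 and TRIAP1, not called, held 1 copy each in the coding sequence. The sites are given with 11 bases on either side and the 7 bases in capitals.
SESN2: ctttggctttgCTACCAGttccatatgat
ZMAT3: tttcagctgctCTACCAGaaggtagaggg
TIGAR, first copy: tgtgtctagcaCTACCAGttttctaccag
TIGAR, second copy: ctaccagttttCTACCAGtattgaaacag

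Among related transcription factors of the p53 family, TP73 stood at 2.79 ± 0.539 CPM in siBARD1 and 3.06 ± 0.398 CPM in siSCR (SD, n = 4 each), with a log2 fold change of -0.13 (SE 0.18, adjusted p = 0.605), and TP63 had at most 7 reads in any library and was not tested. In the list of the p53 family and its regulators, 15 of 39 genes tested changed (38.5%, beside 38.9% of all genes), 4 higher and 11 lower. That is 10.3% higher and 28.2% lower, beside 18.9% and 20.0% of all genes. The median log2 fold change of the list was -0.06. PHF20, a chromatin reader that stabilises p53, had a log2 fold change of -0.72 (SE 0.05, adjusted p = 1.31e-08), and CHEK2, a kinase that phosphorylates p53 after DNA breaks, had one of -0.64 (SE 0.07, adjusted p = 3.55e-06). TAF1, a TFIID subunit, had a log2 fold change of 0.48 (SE 0.05, adjusted p = 7.34e-07), and the damage kinase ATM had one of 0.41 (SE 0.07, adjusted p = 0.000132). CDKN2A, whose ARF product inhibits MDM2, had 0 reads in all 8 libraries, which allows up to 3 counts in each, and is named after its values were seen.

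A second list of 48 p53 targets that are not among the 30 held 41 tested genes, of which 9 rose, 10 fell and 22 were not called. That is 46.3% called, beside 38.9% of all genes, with a median log2 fold change of 0.07. APAF1, the apoptosome scaffold, stood at 40.8 ± 0.531 CPM in siBARD1 and 22.4 ± 1.21 CPM in siSCR (SD, n = 4 each), with a log2 fold change of 0.86 (SE 0.06, adjusted p = 1.7e-08), and ANKRA2, an ankyrin repeat protein, had one of 0.91 (SE 0.14, adjusted p = 6.24e-05). TP53INP2, an autophagy protein, had a log2 fold change of -0.998 (SE 0.08, adjusted p = 4.32e-08). This wider set, like the 30 genes, had members that moved each way.

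Some members are also induced by other pathways, so 2 further lists are set beside them. In the ATF4 and CHOP stress pathway, which can also induce SESN2, GDF15 and TNFRSF10B, 4 of 23 genes rose and 4 fell (median -0.02). That is 34.8% called, beside 38.9% of all genes. The cystathionine lyase CTH had a log2 fold change of 0.83 (SE 0.13, adjusted p = 8.49e-05) and the cystine transporter SLC7A11 had one of 0.44 (SE 0.08, adjusted p = 0.000711), while DDIT4, an mTORC1 inhibitor, had one of -0.55 (SE 0.09, adjusted p = 0.000311) and SLC3A2, the heavy chain of amino acid transporters, had one of -0.45 (SE 0.06, adjusted p = 8.6e-06). In the early response to serum and growth factors, which can also induce BTG2, PLK2 and PLK3, 2 of 24 genes rose and 10 fell (median -0.28). That is 8.33% higher and 41.7% lower, beside 18.9% and 20.0% of all genes. EGR1, a serum-induced transcription factor, had a log2 fold change of -1.54 (SE 0.20, adjusted p = 1.13e-05) and the AP-1 subunit FOSL1 had one of -0.75 (SE 0.12, adjusted p = 0.00107), while ATF3, which is also in the ATF4 list, had one of 0.29 (SE 0.11, adjusted p = 0.0461) and KLF6 had one of 0.17 (SE 0.05, adjusted p = 0.019). The summed level of this list was 1976 to 2080 CPM in siBARD1 and 2380 to 2496 CPM in siSCR. Whether either pathway has a part in the members' changes was not tested.

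**Figure D4:**
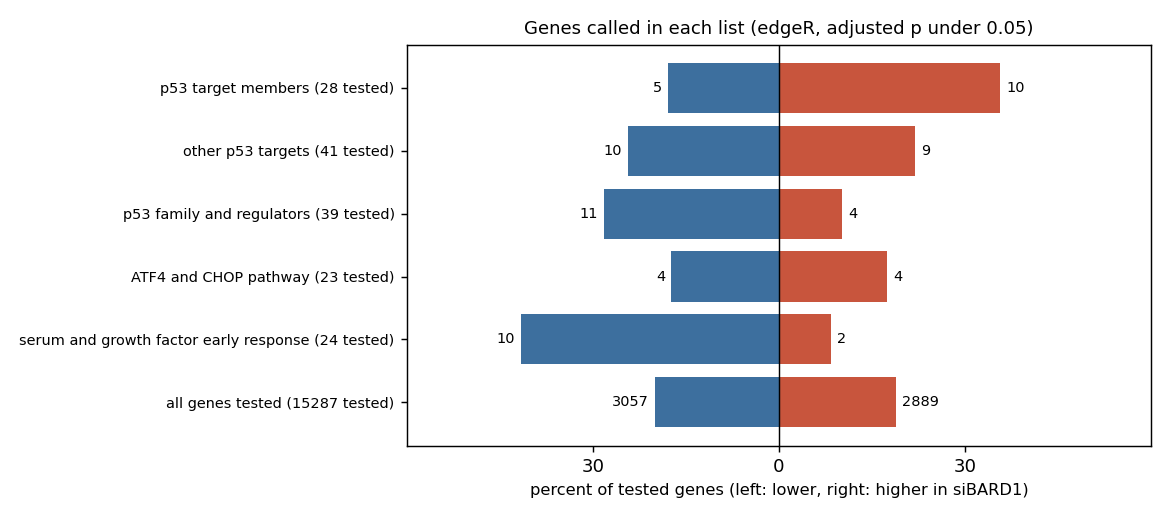
Percent of tested genes called lower (left) or higher (right) in siBARD1 for the 30 p53 target genes, the 4 related lists and all genes, with the number of genes at each bar. The 28 tested p53 targets had 10 higher and 5 lower, beside 2889 higher and 3057 lower among 15287 genes.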

How the data were processed

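Polyadenylated RNA of 8 PANC-1 libraries was sequenced. The authors deposited whole-number read counts and FPKM values per gene. Per the submitters' processing notes, fastp, HISAT2 (2.0.5) and featureCounts were used, with unstated settings. The same notes give GRCh37 and hg19, but all 58735 genes have the starts and ends of GENCODE 29 on GRCh38. The deposited FPKM matched the count scaled by gene length and library total within a factor of 0.970 to 1.03 in each library.

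Counts were tested with edgeR (4.0.16, R 4.3.3): filterByExpr, TMM scaling, a quasi-likelihood test (robust) of the 2 groups with no covariate, and Benjamini-Hochberg adjusted p-values over 15287 genes at 0.05. The SE is the log2 fold change over the square root of F. CPM uses TMM-scaled totals. The fit was tested on simulated data with 200 changed genes, far fewer than the 5946 called here. Pairs of libraries within a group differed beyond sampling noise (chi-square per gene 3.98 to 16.1).

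Members and lists were chosen with earlier results of these data known. BARD1, TP63, TP73, all 30 members and, per related list, up to 2 called genes that rose most and 2 that fell most, at a mean of 1 CPM or more, are named; some genes under this rule are not reported here. CCN1 and CCN2 were matched by gene identifier, and TP53COR1 was not matched. Promoters come from RefSeq and transcripts from GENCODE 29.

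The 20 alternatives changed the scaling (upper quartile, RLE, total count), the filter (none, or 1 CPM in 4 libraries), the genes (protein-coding alone), the tool (limma-voom and limma 3.58.1 on log2(FPKM + 0.1) or log2(FPKM + 1), DESeq2 1.42.0), the threshold (0.01) or the libraries (each left out), or added a replicate block.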

Additional observations from a re-analysis of the deposited data

Results flagged for a closer look

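Within groups of 4 libraries, 2 of 60 cases (each gene in each group) were flagged for 1 library far from the other 3; chance gives about 1 in 20. EDA2R, with all its reads in siBARD1 replicate 4, was not among those flagged. GDF15 in siSCR replicate 1 was 199 CPM, while the other siSCR libraries lay between 107 and 112 CPM. CCNG1 in siBARD1 replicate 3 was 165 CPM, while the other siBARD1 libraries lay between 179 and 180.5 CPM; this lowest value was still above all 4 siSCR libraries.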

How the results depend on the processing

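Over the 20 alternatives, 8 to 11 members rose and 5 or 6 fell, and all genes gave 1936 to 3616 higher and 2167 to 3379 lower. The log2 fold change of BARD1 stayed negative and past the threshold in all 20. Of 560 values of the 28 members, 526 kept direction and side of the threshold, 14 lost a call (FDXR and TP53INP1), 9 gained one (PIDD1, SUSD6 and PLK3) and 11 changed sign, all in uncalled genes with a log2 fold change near 0. With total-count scaling PLK2 was at 0.0029 and PPM1D at 0.018, and with upper-quartile scaling PPM1D was at 0.0080. Leaving out single libraries gave -0.011 to 0.39 for GDF15, -0.034 to 0.11 for TNFRSF10A, -0.10 to 0.023 for PLK2 and -0.062 to 0.0016 for PPM1D; the cause was not tested. At an adjusted p under 0.01, FDXR and TP53INP1 were no longer called.

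Whether the replicate numbers pair the libraries is not settled by these values. Deviations of same-numbered libraries correlated at 0.14, 0.13, 0.03 and -0.03 across genes, for replicates 1, 3, 4 and 5. Pairs of siBARD1 and siSCR libraries with different numbers correlated at -0.28 to 0.14. With the replicate number as a block, 11 members rose and 6 fell, adding SUSD6 and PLK3, and 3225 genes rose and 3379 fell in all. The largest SEs among members were those of GDF15 (0.27), whose libraries were widely spread, and TIGAR (0.22), which had few counts.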
